A study of Mus musculus with 12 samples.

Results

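The genes examined here are 7 transcription and elongation factors of antibody-secreting cells: Prdm1, Irf4, Xbp1, Zbtb20, Pou2af1, Ikzf3 and Ell2. They are 7 of 32285 genes listed in each of 6 single-cell gene expression libraries, and were taken by symbol. They were read in barcodes with at least 1000 unique molecular identifiers (UMIs) outside genes whose names start with Igh, Igk or Igl, and in which 1 light chain variable gene held at least 50% of the light chain variable UMIs. That left 8715 of 39949 filtered barcodes: 107 and 288 in thymus, 1238 and 1665 in bone marrow, and 3567 and 1850 in spleen. Wherever a pair of values is given for a tissue, the female library comes first and the male library second. Levels are CPM, a gene's UMIs scaled to a fixed total of the UMIs outside immunoglobulin genes. They are not per length, so genes are not ranked against each other.

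The cells were antibody-secreting cells (plasmablasts and plasma cells) of C57BL/6 mice at 3 months of age that carried Prdm1-eYFP, a yellow fluorescent reporter of Prdm1. All groups share that genotype, and no mouse without the reporter was analysed here. Cells were sorted for the reporter, high CD138 (the product of Sdc1), and absence of IgD and CD90.2, so both Prdm1 expression and the plasma cell surface phenotype were conditions of entry. Each library pooled 3 mice of 1 sex and 1 tissue, giving 2 libraries per tissue that differ in sex. A p-value between tissues or sexes takes the difference between the sexes as equal in all tissues. It therefore rests on the spread between pools that is left after additive terms for tissue and sex. The test used here estimates that spread with information shared across genes, so a call does not show that a gene's own libraries lay close together. Comparisons of groups of cells within a library rest instead on how the difference varies between libraries. Sex and pool cannot be told apart within a tissue. Whether 1 set of mice gave all 3 tissues is not stated in the labels.

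Plasma cell identity rests on a small network. IRF4 starts and sustains the program. Blimp1, encoded by Prdm1, represses B cell genes, and XBP1 expands the secretory apparatus as part of the unfolded protein response. OBF1, encoded by Pou2af1, is a coactivator of octamer-binding factors, and Aiolos, encoded by Ikzf3, is an Ikaros family zinc finger protein. ZBTB20 is a zinc finger repressor known for its part in long-lived antibody responses. ELL2 is an elongation factor known to favour the secreted form of heavy chain mRNA.

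All 10 genes of the antibody-secreting cell marker list were detected in each library, at a summed level of 54179 to 106388 CPM. The neutrophil list (9 genes) summed to 552 and 1416 CPM in bone marrow, to at most 0.141 CPM in spleen and to 0 in thymus. The T cell list (10 genes) summed to 83.1 and 28.6 CPM in thymus and 6.31 to 13.2 CPM elsewhere, and the B cell list (12 genes) to 2237 to 4293 CPM, with Pax5, Fcer2a and Cr2 at 0 in both thymus libraries. The part of these cells or transcripts in the results below was not tested. Of the barcodes that passed, 39 were shared by more than 1 library.

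Positions are from GENCODE M21 on GRCm38, the build named by the submitters' processing notes. Prdm1 (ENSMUSG00000038151) spans chr10:44437177-44528501 on the minus strand, Irf4 (ENSMUSG00000021356) chr13:30749226-30766976 on the plus strand, Xbp1 (ENSMUSG00000020484) chr11:5520659-5525893 on the plus strand and Zbtb20 (ENSMUSG00000022708) chr16:42875881-43642602 on the plus strand. Pou2af1 (ENSMUSG00000032053) spans chr9:51213708-51240080 on the plus strand, Ikzf3 (ENSMUSG00000018168) chr11:98464902-98546031 on the minus strand and Ell2 (ENSMUSG00000001542) chr13:75706757-75772364 on the plus strand.

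The promoters of 3 genes are shown, for the genes whose levels differed most clearly between tissues (Irf4 and Zbtb20) and between heavy chain classes (Pou2af1). They are RefSeq sequences on GRCm38.p6 and hold the 250 bases before the annotated start, 5′ to 3′ on the gene's strand: chr13:30748983-30749232 for Irf4, chr16:43247034-43247283 for Zbtb20 (a start inside the gene's span) and chr9:51213440-51213689 for Pou2af1. Capitals mark matches to any of 8 motifs searched on both strands.
Irf4: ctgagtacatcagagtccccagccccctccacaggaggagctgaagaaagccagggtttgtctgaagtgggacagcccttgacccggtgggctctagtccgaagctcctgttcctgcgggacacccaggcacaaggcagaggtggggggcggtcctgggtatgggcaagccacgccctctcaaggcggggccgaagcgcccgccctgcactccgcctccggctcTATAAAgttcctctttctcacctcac
Zbtb20: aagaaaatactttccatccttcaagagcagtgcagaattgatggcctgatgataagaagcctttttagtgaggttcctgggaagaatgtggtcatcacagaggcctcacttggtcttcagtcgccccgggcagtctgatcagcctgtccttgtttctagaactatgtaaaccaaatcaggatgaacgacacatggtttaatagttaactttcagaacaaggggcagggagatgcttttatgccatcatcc
Pou2af1: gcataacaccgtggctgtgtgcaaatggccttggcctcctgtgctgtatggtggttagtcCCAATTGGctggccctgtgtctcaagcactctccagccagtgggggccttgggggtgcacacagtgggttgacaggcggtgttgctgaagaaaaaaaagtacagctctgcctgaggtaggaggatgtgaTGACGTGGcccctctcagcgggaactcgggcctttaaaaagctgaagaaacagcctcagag

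The Irf4 window holds a TATA box (TATAAA) that begins 26 bases before the start, a motif found in 12.4% of 32851 mouse windows of this length. The Pou2af1 window holds TGACGTGG, the core of the unfolded protein response element bound by XBP1, 61 bases before the start; 0.563% of all windows hold it. It also holds a CCAAT box on each strand, overlapping by 2 letters, a motif of 33.8% of windows. The Zbtb20 window holds no match. The other motifs searched were the core of the interferon-stimulated response element (2.98% of windows), that of the Ets-IRF composite element (2.3%), ATGCAAAT (octamer, 1.6%), CACGTG (E-box, 6.02%) and TTCNNNGAA (STAT site, 7.02%), none of which occurs in the 6 windows that could be matched to a member. A match describes letters only.

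Xbp1 and Prdm1 varied less across libraries than Irf4. The level of Xbp1 was 3556 and 3546 CPM in thymus, 3074 and 3606 in bone marrow, and 3600.3 and 3707 in spleen. Prdm1 stood at 1035 and 1042 CPM in thymus, 897 and 1068 in bone marrow, and 844 and 840.4 in spleen. In Irf4, both thymus libraries lay above all others, at 865 and 776 CPM, against 357 and 397 in bone marrow and 271 and 492 in spleen. The thymus values rest on 229 and 923 Irf4 UMIs.

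Among the cofactors, Pou2af1 varied little, from 457 CPM in female thymus to 621 in male thymus, with the other libraries between. Zbtb20 was lowest in female spleen, at 231 CPM, and otherwise ran from 362 CPM in male thymus to 554 in male spleen. Ikzf3 was also lowest in female spleen, at 169 CPM, with 226 to 306 CPM elsewhere. Ell2 stood at 752 and 605 CPM in thymus, 425 and 447 in bone marrow, and 405 and 617 in spleen. Both thymus libraries lay above both bone marrow libraries in Ell2 and, by a small margin that TMM scaling removed, in Ikzf3. They lay below both in Zbtb20, but female thymus only marginally below female bone marrow. With TMM scaling these 2 libraries held 363 and 475 CPM of Zbtb20. In the other pairings of tissues the libraries of these 4 genes overlapped in unscaled CPM. With TMM scaling, Pou2af1 was lower in both thymus libraries (389 and 559 CPM) than in both of bone marrow (614 and 612.5), and Xbp1 was lower in thymus (3024 and 3195) than in the other 4 libraries. Prdm1 was then also lower in thymus (881 and 939) than in bone marrow (993 and 1090) and overlapped with spleen (1041 and 787). None of these differences was called.

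Free RNA was read from barcodes outside the filtered lists with 10 to 100 UMIs. Prdm1 reached 344 to 674 CPM there and Xbp1 1468 to 2234 CPM, below the cells of the same library in each case. Pou2af1, at 326 to 551 CPM in free RNA, was close to its level in cells, and Ikzf3 in free RNA (141 to 347 CPM) exceeded the cells of female bone marrow and of female spleen. In female spleen free RNA of Zbtb20 (409.9 CPM) and of Ell2 (407 CPM) was also at or above the cells. As a second background, 72 macrophage-like barcodes of the 4 bone marrow and spleen libraries were thinned to 1000 UMIs each, as were the cells. Xbp1 was seen in 55.6% of them against 87.2% to 93.5% of cells, Prdm1 in 34.7% against 50.3% to 59.8%, and Irf4 in 13.9% against 25.7% to 55.1%. Pou2af1 was seen in 9.72% against 35.5% to 43.1%, Ikzf3 in 8.33% against 17.3% to 27.8%, Zbtb20 in 20.8% against 26% to 44.9%, and Ell2 in 20.8% against 36% to 53.3%. Before thinning, the macrophage-like barcodes had a median of 1618 UMIs and the cells 2035 to 4352. Every share was higher in cells.

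The cells of each library were split into 2 groups at a 10% share of UMIs from ribosomal protein genes (Rpl and Rps), and the 7 genes divided between them. Zbtb20, Irf4, Ell2 and Ikzf3 were higher in cells with a share under 10% in 6 of 6 libraries, whereas Prdm1 and Xbp1 were somewhat lower there in 5 of 6. The split was made after the data were seen. Cells with a share of 8% to 12%, near the cut, were 365 of 3567 in female spleen and 85 of 1850 in male spleen. They were 47 of 1238 and 81 of 1665 in bone marrow, and 2 of 107 and 14 of 288 in thymus. Cells under 10% made up 86% and 77.8% of thymus, 67.4% and 65.9% of bone marrow, and 49.4% and 81.8% of spleen. Their median depth was 1959.5 to 3125 UMIs, against 4185 to 9964 in the other cells. Their Malat1 level, a nuclear RNA, was 73356 to 105969 CPM against 9061 to 18107, and their median mitochondrial share 2.42% to 4.22% against 0.647% to 0.867%. The antibody-secreting cell list summed to 22087 to 56155 CPM under 10% and to 117268 to 152734 CPM in the other cells. Sdc1, a gene of that list, went the other way in 5 of 6 libraries, with under 10% to other ratios of 0.977 to 1.56. Mki67 (3.22 to 27.4) and Top2a (1.19 to 7.82) were higher under 10% in 6 of 6. Both upper ends are from female thymus, where the group at or above 10% holds 15 cells and 15.4 CPM of each gene. Elsewhere the ratios ran from 3.22 to 4.71 and from 1.19 to 3.29. The B cell list was lower under 10% in 6 of 6 libraries (1829 to 4203 against 2425 to 4569 CPM). Neutrophil genes summed to 3599 against 55.4 CPM in male bone marrow and to 178 against 765 CPM in female bone marrow, and T cell genes in thymus to 95.2 and 38.2 against 46.2 and 18.8 CPM. The median light chain share was 62.3% to 89% under 10% and 86.3% to 98.1% in the other cells, lower under 10% in each library. The part of these differences in the results of the split was not tested, and RNA quality, depth and cell state cannot be told apart in it.

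**Figure D1:**
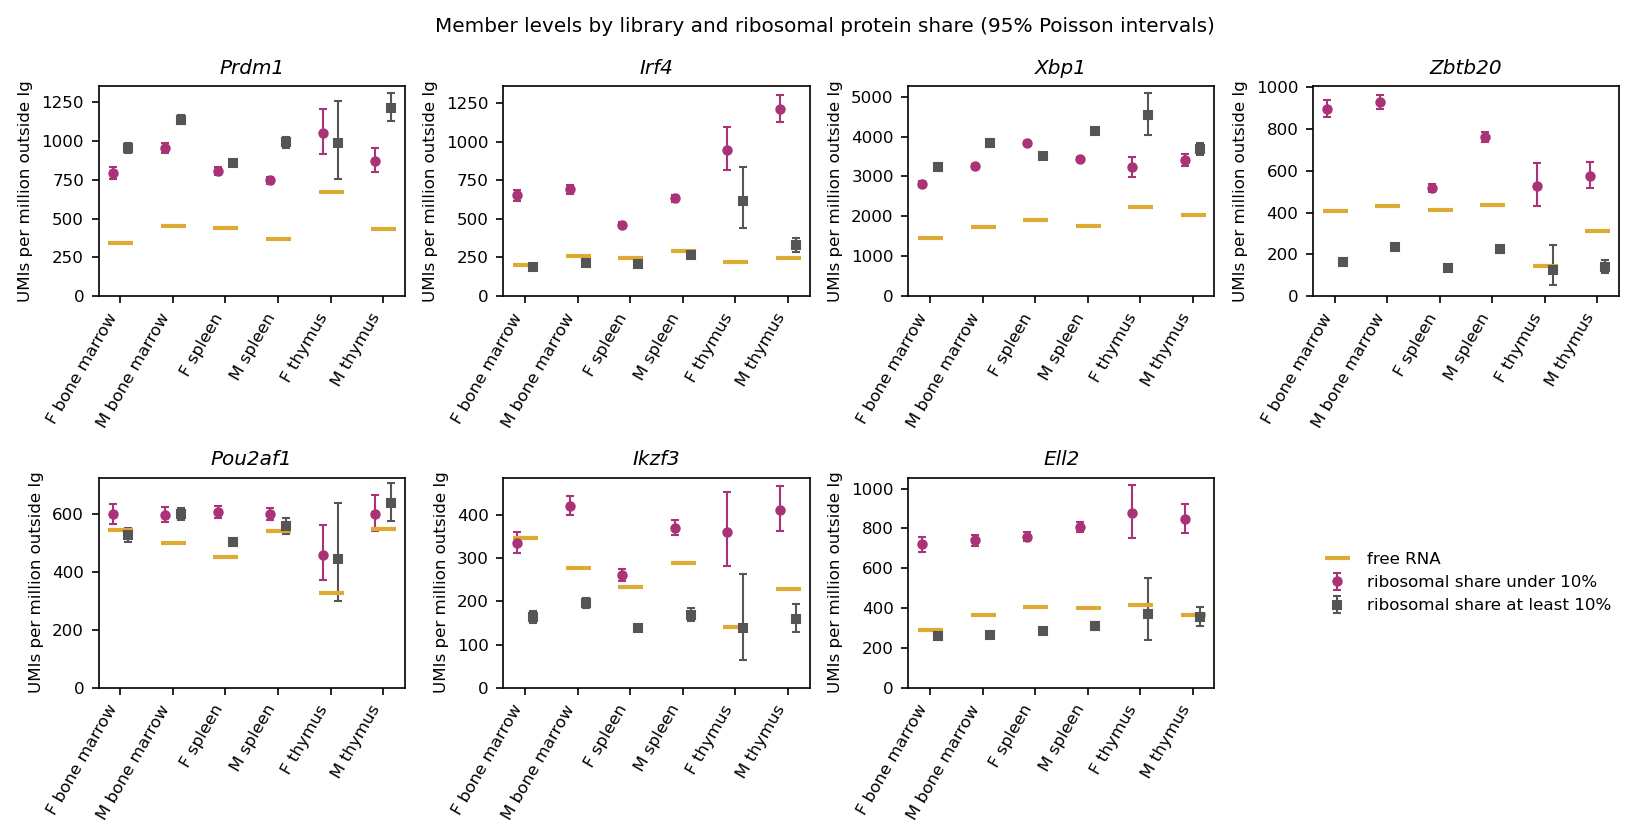
Level of each gene (CPM outside immunoglobulin genes, with 95% Poisson intervals that cover counting error only) in the 6 libraries (F female, M male), for cells under and at least 10% ribosomal protein UMIs; bars mark free RNA. Irf4, Zbtb20, Ikzf3 and Ell2 separate the 2 groups of cells in each library, while Pou2af1 lies near its free RNA level in both.

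Zbtb20 showed the widest separation. In cells under 10% it stood at 526 and 577 CPM in thymus, 898 and 929 in bone marrow, and 519 and 759.9 in spleen. In the other cells it stood at 123 and 139.9, 162.5 and 234, and 132 and 223 CPM. The ranges of the 2 groups did not overlap, and the ratio within a library was 3.4 to 5.53.

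For Irf4 the ratio between the 2 groups within a library was 1.54 to 3.7, lowest in female thymus, where the group at or above 10% holds 15 cells and 40 Irf4 UMIs. The ratio was 2.37 to 2.79 for Ell2 and 1.9 to 2.61 for Ikzf3. Pou2af1 differed little, with a ratio of 0.942 to 1.21. Xbp1 had ratios of 0.713 to 1.09 and Prdm1 of 0.72 to 1.07. With ribosomal and mitochondrial genes also left out of the totals, Xbp1 and Prdm1 were below 1 in 6 of 6 libraries, and the other 4 genes named as higher remained above 1 in 6 of 6.

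Summed per library and compared with edgeR's quasi-likelihood test, with ribosomal protein and mitochondrial genes left out of the sums and their totals, 8275 of 10630 genes (77.8%) differed between the 2 groups, so a call alone marks no gene out. The log2 fold change, under 10% minus at least 10%, was 1.61 ± 0.10 (SE, 6 library pairs) for Zbtb20, 1.04 ± 0.11 for Irf4, 0.97 ± 0.10 for Ell2 and 0.67 ± 0.10 for Ikzf3. It was -0.67 ± 0.11 for Prdm1, -0.60 ± 0.11 for Xbp1 and -0.33 ± 0.10 for Pou2af1. The median of all genes tested was 0.40. Without TMM scaling the values rose to 1.87 for Zbtb20, 1.29 for Irf4, 1.22 for Ell2 and 0.93 for Ikzf3, and Prdm1 and Xbp1 stayed lower at -0.43 and -0.37. The Pou2af1 call was lost (-0.08, adjusted p 0.417), as it was in thinned cells (-0.27, adjusted p 0.0707), and without single libraries its value ran from -0.64 (without female spleen) to -0.28 (without male thymus). The Ikzf3 call was lost without cells with 2 UMIs of core B cell genes (0.31, adjusted p 0.093), and without female spleen the Ikzf3 value was 0.44. In both of these fits the median of all genes was also lower, at 0.09. For none of the 7 did a test of the interaction find that the difference varied with tissue (smallest adjusted p 0.674, edgeR, 3 residual degrees of freedom).

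**Figure D2:**
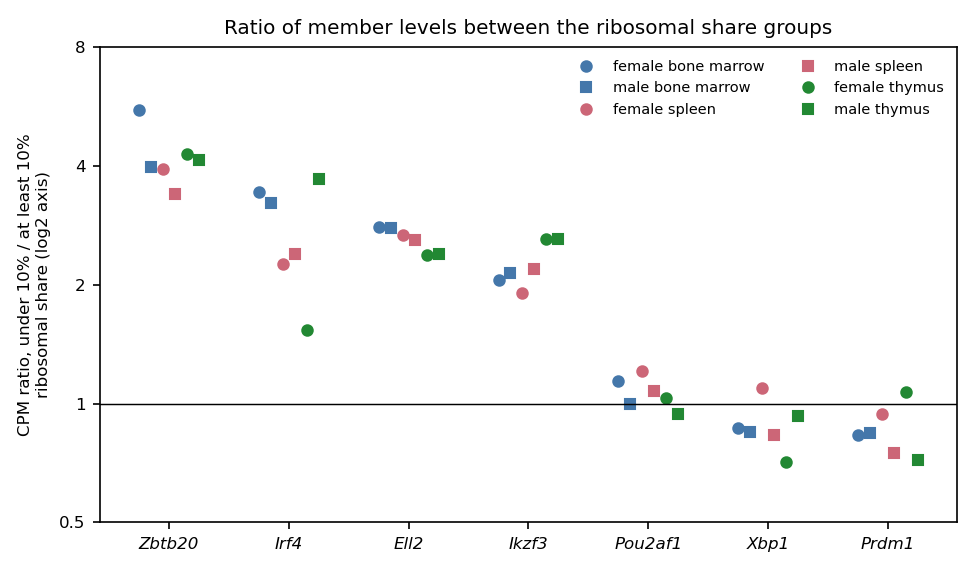
Ratio of each gene's level (CPM) in cells under 10% to that in cells at or above 10% ribosomal protein UMIs, 1 point per library, on a log2 axis; the line marks equality. Zbtb20, Irf4, Ell2 and Ikzf3 lie above 1 in all 6 libraries, and Zbtb20 reaches from 3.4 to 5.53.

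The tissue comparison asks whether antibody-secreting cells of the thymus, an organ of T cell development, differ from those of spleen and bone marrow. With all cells of a library summed, none of the 7 genes passed the test between tissues or sexes. For Irf4 the log2 fold change was 0.84 ± 0.39 (SE, 2 libraries a tissue) in thymus against bone marrow and 0.86 ± 0.39 against spleen, with adjusted p of 0.561 and 0.521 (edgeR). The unadjusted p were 0.04 and 0.0357, and both thymus libraries were above the other 4. The fit has 2 residual degrees of freedom, and a miss does not show that levels were alike. Apart from the groups by ribosomal share, described next, the 24 alternatives called 2 values, both without cells with 2 markers of other cell types: Irf4 in thymus against spleen (1.12, adjusted p 0.000203) and Zbtb20 in thymus against bone marrow (-1.03, adjusted p 0.00678). B cell genes count among those markers, and the limit removed 68.8% to 91.1% of the cells of a library. The sums left held 29 to 331 cells. Of 11239 genes, 0.765% were called in thymus against bone marrow, 0.632% in thymus against spleen, 0.436% in spleen against bone marrow and 0.427% in male against female.

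The share of cells under 10% ribosomal UMIs differs between libraries, and so the tissues were also compared within each group of cells. Within cells under 10%, Irf4 was 1.82-fold higher in thymus than in spleen. Its level there was 947 and 1213 CPM in thymus, 463 and 633 in spleen, 652 and 691 in bone marrow, so that both thymus libraries again lay above the rest. The log2 fold change against spleen was 0.86 ± 0.18 (SE, 2 libraries a tissue; adjusted p 0.00107, edgeR), in a contrast that called 4.65% of 10341 genes. Against bone marrow it was 0.57 ± 0.18 (adjusted p 0.101), in a contrast that called 1.64%; 4 of 14 alternatives called it, among them those without either spleen library (both 0.57), and values without a library ran from 0.39 to 0.71. The difference from spleen was as large in non-cycling IgM cells (0.86) and in cells thinned to equal depth (0.88). In every fit that leaves out a library, its tissue rests on 1 library, whose spread is taken from the other tissues. The difference from spleen ranged from 0.76 to 0.96 in these fits; without male thymus it was 0.78 and no longer called (adjusted p 0.0976). Without the term for sex it was 0.86 (adjusted p 0.107).

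Within cells at or above 10%, Irf4 stood at 615 and 327.5 CPM in thymus, 189.8 and 214 in bone marrow, and 205 and 265 in spleen. Both thymus libraries were highest once more, but by unequal amounts. The log2 fold change was 0.75 ± 0.19 against bone marrow (adjusted p 0.00723, edgeR; 1.27% of 9727 genes called) and 0.55 ± 0.19 against spleen (adjusted p 0.127; 1.47% called). The difference from bone marrow was called in 6 of 14 alternatives. It was 0.49 without female thymus, whose sum holds 15 cells, and 1.37 without male thymus, which leaves those 15 cells as the whole of thymus; calls in these 2 fits use the spread of the other tissues and say nothing about the spread between thymus libraries. Leaving out any 1 of the bone marrow or spleen libraries gave 0.78 to 0.996 and ended the call. Among non-cycling IgM cells of this group it was 0.29 and not called. The difference from spleen was called in 3 of 14 alternatives, ran from 0.28 (without female thymus) to 1.16 (without male thymus) and was -0.02 in non-cycling IgM cells. In female thymus Irf4 stood at 205 CPM in the 5 IgM cells of this group and at 1362 CPM in its 8 IgA cells. Without cells with 2 UMIs of 8 core B cell genes the difference from bone marrow was 1.77, in a fit whose smallest sum holds 8 cells and 17247 UMIs, and DESeq2 gave 0.92 without a call, as did thinning to equal depth (1.01) and the fit without the term for sex (0.86). Free RNA held 221 and 244 CPM of Irf4 in the thymus libraries, within the range of the others (201 to 294 CPM). The bone marrow and spleen cells of this group, at 189.8 to 265 CPM, were near these free RNA levels. The thymus cells, at 615 and 327.5 CPM, lay above them. The part of free RNA in the differences was not tested.

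Zbtb20 went the other way. It was lower in thymus than in bone marrow in both groups of cells, by the values given above for each library: in each group both bone marrow libraries lay above both thymus libraries. The log2 fold change was -0.85 ± 0.19 under 10% (SE, 2 libraries a tissue; adjusted p 0.00551, edgeR) and -0.84 ± 0.21 at or above 10% (adjusted p 0.0105). With all cells summed it was -0.52 ± 0.39 (adjusted p 0.742). Under 10%, the difference was called in 9 of 14 alternatives, among them 4 of 6 with a library left out. It was not called without female bone marrow (-0.70), without male thymus (-0.79), in cells thinned to equal depth (-0.77), at a light chain share of at least 80% (-0.88) or without the term for sex (-0.83). At or above 10% it was called in 4 of 14 alternatives. The 1 such call with a library left out (-0.87, without female thymus) sets 1 thymus library against the spread of the other tissues. DESeq2 gave -0.81 without a call. Cells thinned to equal depth gave -0.30 and cells without core B cell UMIs -0.25 there, and non-cycling IgM cells -0.84 and the fit without the term for sex -0.68, none of them called. Free RNA of Zbtb20 was also lower in thymus, at 145 and 311 CPM against 407 and 430 in bone marrow. Cells at or above 10% lay below the free RNA of their own library. They held 123 and 139.9 CPM in thymus and 162.5 and 234 in bone marrow, and the female thymus sum holds 15 cells. The part of free RNA in the difference was not tested.

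For Zbtb20 neither spleen contrast was called in either group. Spleen against bone marrow gave -0.52 ± 0.17 under 10% (adjusted p 0.0913, edgeR; 2.71% called) and -0.19 ± 0.13 at or above 10% (adjusted p 0.589; 3.74% called). Thymus against spleen gave -0.33 and -0.65. Of their alternatives, 3 were called: spleen against bone marrow under 10% without male spleen (-0.73) and without core B cell UMIs (-0.58), and thymus against spleen at or above 10% without female thymus (-0.69). In the first and the third, 1 tissue is a single library.

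The other 5 genes did not pass the test between tissues in either group of cells. Their log2 fold changes between thymus and bone marrow ran from -0.26 (Pou2af1) to 0.13 (Ell2) under 10%, and from -0.41 (Ikzf3) to 0.30 (Ell2) at or above 10%. Between males and females, Zbtb20 was higher in males at or above 10%, with a log2 fold change of 0.54 ± 0.12 (SE, 3 libraries a sex; adjusted p 0.00109, edgeR; 4.71% called). Under 10% it was 0.15 ± 0.15 (adjusted p 0.644; 4.36% called). The first value was called in 6 of 13 alternatives: DESeq2 gave 0.52 without a call (adjusted p 0.9999), and leaving out either bone marrow or either spleen library, thinning to equal depth (0.68) and leaving out cells with core B cell UMIs (0.59) also ended the call. The other 6 genes did not pass between the sexes.

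**Figure D3:**
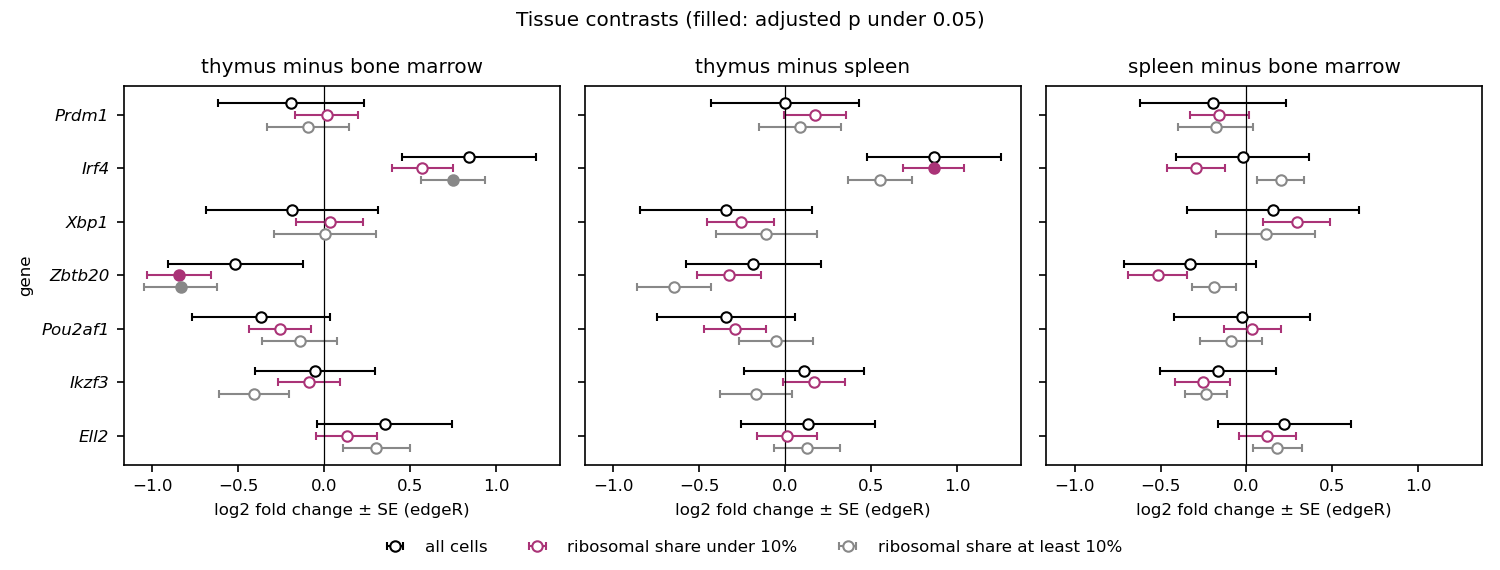
Log2 fold change ± SE of each gene in the 3 tissue contrasts (edgeR), for all cells and for the 2 groups by ribosomal share; filled points have an adjusted p under 0.05. Irf4 lies above 0 in both thymus contrasts and Zbtb20 below 0, with calls only within the groups by ribosomal share.

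Heavy chain class was read from the constant gene with the most UMIs, and classes were compared within libraries among cells with no Mki67 or Top2a UMI. Pou2af1 was lower in IgG than in IgM cells in 6 of 6 libraries, 1.67-fold in the fit. IgG cells held 355 and 639.5 CPM in thymus, 273 and 293 in bone marrow, and 353 and 419 in spleen. IgM cells held 454 and 679, 587 and 634, and 593 and 616 CPM in the same order. In bone marrow and spleen all IgG values lay below all IgM values; in male thymus the 2 classes were closest. The log2 fold change was -0.74 ± 0.14 (SE, 6 libraries; adjusted p 0.000134, edgeR), in a contrast that called 13% of 5278 genes.

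The Pou2af1 difference was called in 22 of 23 alternatives and without each library in turn (-0.87 to -0.64). It was -1.15 in cells at or above 10% ribosomal share and -0.54 under 10%. The exception left out cells with UMIs of 2 marker genes of other cell types (-0.58, adjusted p 0.673), which removes most cells. Without cells that had 2 UMIs of 8 core B cell genes it was -0.68 and called. IgA cells also held less Pou2af1 than IgM cells in 6 of 6 libraries, but this did not pass the test (-0.36 ± 0.15, adjusted p 0.123; 1 of 23 alternatives called it). The IgG difference did not pass the test of an interaction with tissue (adjusted p 0.9995; unadjusted 0.0356).

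IgA cells differed from IgM cells in 3 of the 7 genes, where 7.73% of all genes were called. Ell2 was higher in 6 of 6 libraries (ratios 1.07 to 1.93; log2 fold change 0.44 ± 0.13, SE, 6 libraries, adjusted p 0.027, edgeR). Irf4 was higher in 6 of 6 (ratios 1.01 to 1.47; 0.40 ± 0.13, adjusted p 0.0383). Zbtb20 was lower in 5 of 6 and marginally higher in male bone marrow (ratios 0.323 to 1.001; -0.47 ± 0.15, adjusted p 0.0346). The IgA sums are small, from 11 cells in female thymus to 147 in female spleen. Cells under 10% ribosomal share made up 36.4% and 95.2% of IgA cells in thymus, 78.3% and 81.6% in bone marrow, and 68% and 80% in spleen. Among IgM cells the shares were 91.7% and 76.5%, 66.9% and 63.4%, and 49.4% and 81.6% in the same order, so the share was higher in IgA in 4 of 6 libraries and lower in male spleen and female thymus.

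Within the cells under 10%, the IgA difference of Irf4 was 0.13 and that of Ell2 0.23, neither called, whereas that of Zbtb20 was -0.71 and called (adjusted p 0.00564). In cells at or above 10% the 3 values were 0.47, 0.36 and -0.50, none called. Of 23 alternatives, 11 called Irf4, 12 Ell2 and 11 Zbtb20. Thinning to equal depth also ended the 3 calls, with values of 0.28 for Irf4, 0.41 for Ell2 and -0.48 for Zbtb20. Leaving out single libraries kept 3 of 6 calls for Irf4 (not without female or male bone marrow or female spleen, adjusted p 0.145 to 0.18) and the same 3 of 6 for Ell2 (adjusted p 0.0841 to 0.243). Zbtb20 kept 2 of 6 calls, those without male bone marrow and without female thymus, and its value without male spleen was -0.31.

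Irf4 was lower in IgG than in IgM cells in 6 of 6 libraries, at a log2 fold change of -0.35 ± 0.13 that missed the threshold (adjusted p 0.0542, edgeR). It was called in 4 of 23 alternatives, DESeq2 among them (adjusted p 0.0103), and in 0 of 6 with a library left out. Over the 23 alternatives the value ran from -1.38 to -0.03. Xbp1 had higher values than IgM in 6 of 6 libraries in both switched classes, 0.42 ± 0.17 in IgA and 0.39 ± 0.17 in IgG, with adjusted p of 0.115 and 0.12. Of 23 alternatives, 4 called the first and 5 the second, DESeq2 and the fit without female thymus among them in both. Prdm1 and Ikzf3 did not pass in either class: the log2 fold change was -0.09 and -0.18 for Prdm1, and 0.16 and -0.20 for Ikzf3. For Prdm1 in IgG cells 3 of 23 alternatives made a call: thinned cells (-0.43), cells under 10% ribosomal share (-0.45) and cells without core B cell UMIs (-0.68).

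**Figure D4:**
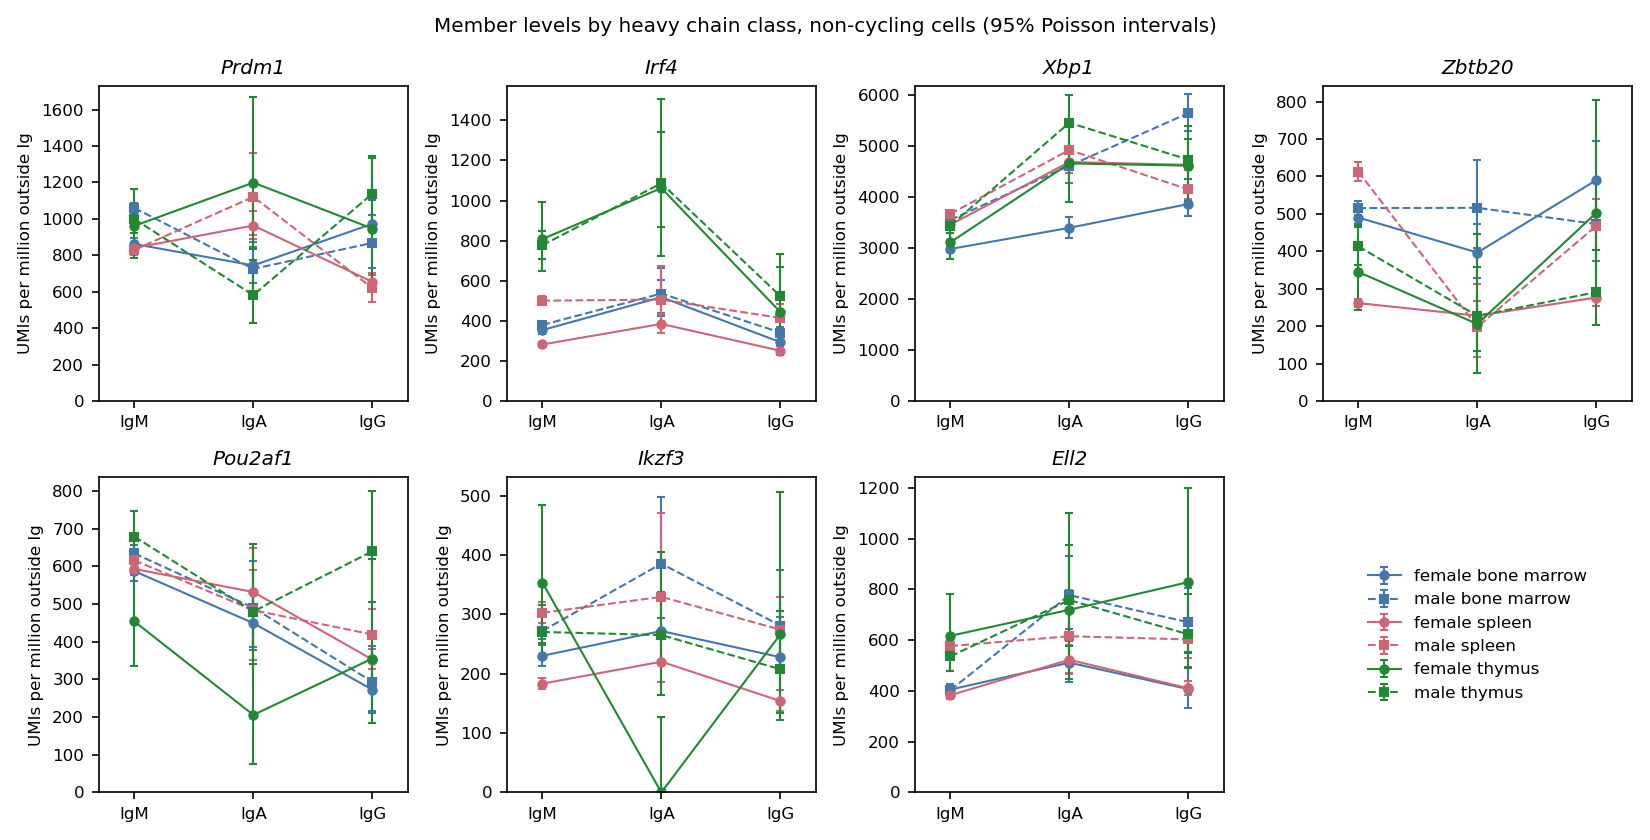
Level of each gene (CPM outside immunoglobulin genes, 95% Poisson intervals covering counting error only) in non-cycling IgM, IgA and IgG cells of each library, with points of a library joined. Pou2af1 falls from IgM to IgG in all 6 libraries, though the IgG intervals of both thymus libraries cover the IgM level. Irf4 and Ell2 are higher in IgA than in IgM.

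Cells with a Mki67 or Top2a UMI, the mark of cycling plasmablasts, held less Zbtb20 than the others in 5 of 6 libraries. The values were 331 and 479 CPM in cycling cells of bone marrow against 489 and 514, and 202 and 516 in spleen against 262 and 589. In thymus they were 569 and 331 against 352 and 376, so female thymus, with 36 cycling cells, went the other way. The log2 fold change was -0.30 ± 0.08 (SE, 6 libraries; adjusted p 0.00479, edgeR), where 23.9% of 10768 genes were called. It was called in 18 of 24 alternatives, among them cells under 10% ribosomal share (-0.32) and at or above it (-0.24). The call was lost without female bone marrow (-0.23, adjusted p 0.0506), without female spleen (-0.27, adjusted p 0.0676), when cycling was read after thinning (-0.22, adjusted p 0.135), with tissue and sex in place of library in the fit (-0.23, adjusted p 0.533), and without cells with 2 UMIs of core B cell genes (-0.22, adjusted p 0.261). The sixth, without cells with 2 markers of other cell types, gave 0.02. Cycling cells had the higher median depth in each library, at 2074 to 5629 UMIs against 1991 to 3687 in non-cycling cells. The count of a cell as cycling depended on depth. Cycling cells were 23.6% to 42% of a library at full depth. After thinning to equal depth they were 10.1% to 20.6%, a lower share in each library. Of the cells counted as cycling at full depth, 39.1% to 61.1% kept the mark after thinning. The part of depth in the Zbtb20 difference was not tested.

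The other 6 genes did not pass between cycling and non-cycling cells. In unscaled CPM, Prdm1 and Ell2 were above their non-cycling level in 6 of 6 libraries, by ratios of 1.06 to 1.2 and 1.04 to 1.33, with log2 fold changes of 0.07 ± 0.08 and 0.11 ± 0.07. Xbp1 was below it in 6 of 6, by ratios of 0.769 to 0.997 (-0.19 ± 0.10, adjusted p 0.186, edgeR). With the TMM scaling of the fit, Prdm1 was lower in cycling cells of male bone marrow (1074 against 1109 CPM) and female thymus (821 against 895), and Xbp1 was not lower in female bone marrow (3459.8 against 3450.7). Irf4, Pou2af1 and Ikzf3 had values of -0.03, -0.11 and -0.06. Of 24 alternatives, 3 called Xbp1, which was -0.40 when cycling was read after thinning, -0.19 with DESeq2 and -0.19 at or above 10% ribosomal share, and 1 called Pou2af1, at or above 10% (-0.20).

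**Figure D5:**
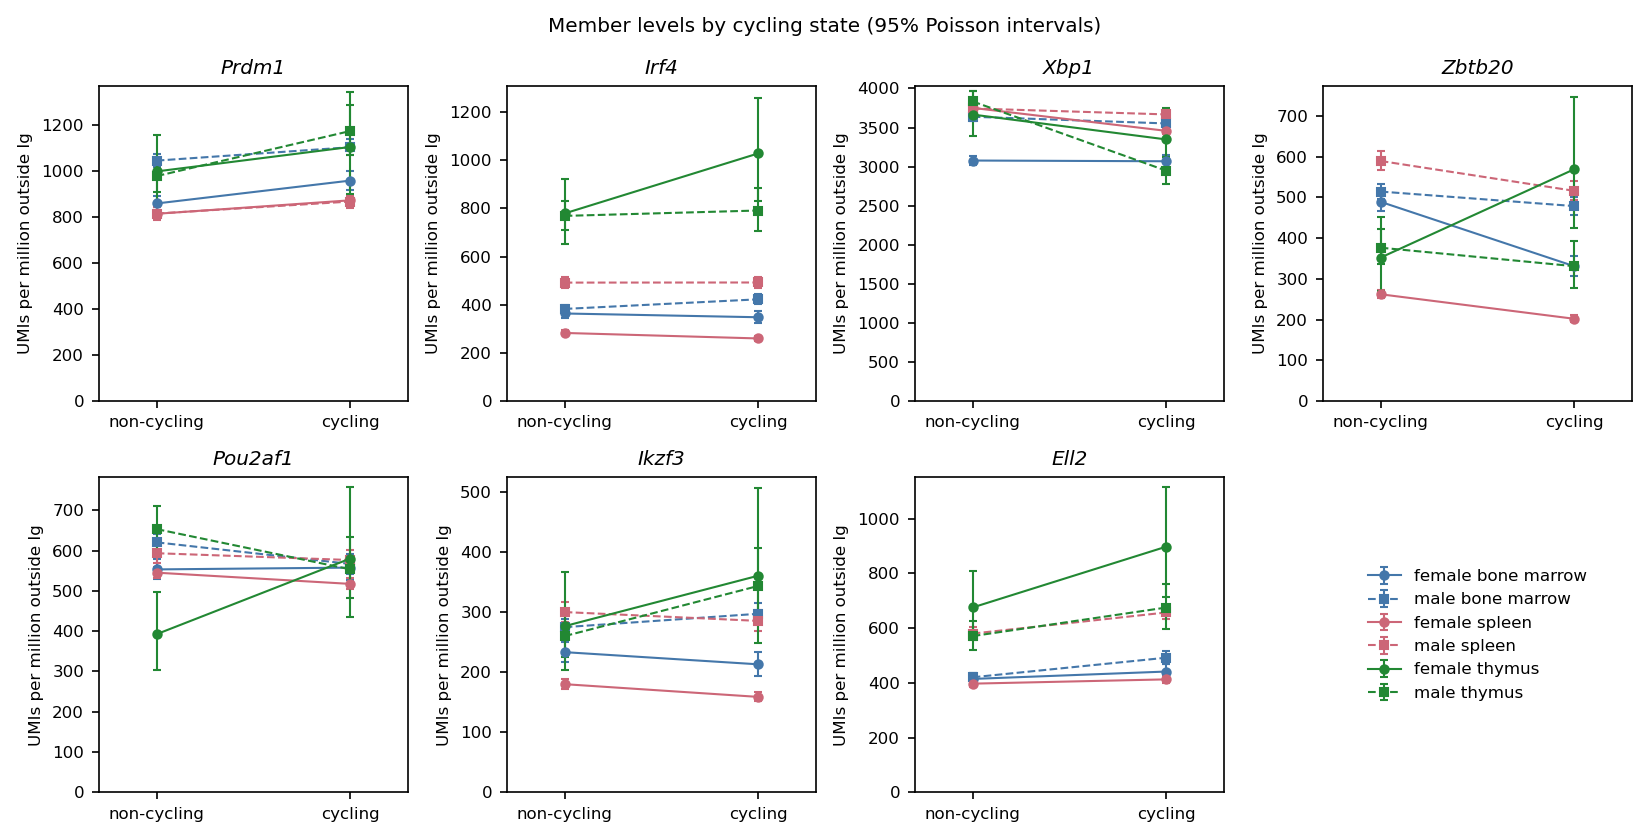
Level of each gene (CPM outside immunoglobulin genes, 95% Poisson intervals covering counting error only) in non-cycling and cycling cells of each library, joined by library. Zbtb20 is lower in cycling cells in 5 of 6 libraries, and in these unscaled values Xbp1 is lower, and Prdm1 and Ell2 higher, in 6 of 6.

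Lists of related genes, 4 in all, were read in the same fits. Of 13 regulators of B cell identity, 6 were tested by class, where 7.73% of all genes were called for IgA and 13% for IgG. Irf8, a factor of B cell development, was lower in IgA (-1.50) and in IgG cells (-0.95), and Mef2b was lower in IgA cells (-1.09). Female thymus went the other way in Mef2b (30.1 TMM-scaled CPM in IgA against 8.44 in IgM). Ebf1 was higher in IgA cells (1.12), with 67.1 and 104 against 20.9 and 6.72 TMM-scaled CPM in bone marrow but 30.3 and 33.0 against 33.6 and 31.5 in spleen. Spi1, which encodes PU.1, was higher in IgG cells (0.49). The list's median was 0.06 in IgA and 0.01 in IgG, beside -0.01 and 0.01 for all genes. Under 10% ribosomal share, Ebf1 was lower in thymus than in spleen (-1.41), the 1 call among 7 tested, where 4.65% of all genes were called. None of the 8 tested was called by cycling.

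Of 28 partners and other regulators, 21 were tested by class, against the same shares of all genes called. In IgG cells, where Pou2af1 fell, the noncanonical NF-kappaB genes Nfkb2 (-1.82) and Relb (-1.21) also fell, while Pou2f2, which encodes the octamer-binding partner OCT2, rose (0.39) together with Bhlha15 (0.44), a secretory cell factor. The list's median was -0.19 beside 0.01 for all genes. In IgA cells Klf2 was the 1 gene called (2.53). By cycling, 4 of 26 rose, led by Id2 (0.77), Klf2 (0.58) and Arid3a (0.49), and 6 fell, led by Nfkb2 (-0.46), Relb (-0.36) and Cxxc5 (-0.33), where 23.9% of all genes were called. Klf2 was also lower in males with all cells summed (-2.07), the 1 call among 26 tested in that fit, where 0.427% of all genes were called, with 6.82 to 12.1 TMM-scaled CPM in the male libraries and 37.4 to 54.6 in the female ones.

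Of 26 genes of the unfolded protein response, the pathway of XBP1, 6 rose and 2 fell in IgG cells (median 0.29 beside 0.01 for all genes, 13% of which were called). The chaperone genes Hsp90b1 (0.69) and Mzb1 (0.58) and Edem1 (0.56), a factor of protein degradation, rose, and Ddit3, which encodes CHOP, fell (-1.08), as did Herpud1 (-0.47). In IgA cells 1 rose (Atf6, 0.44) and 1 fell (Ddit3, -0.91), where 7.73% of all genes were called. In cycling cells, where 23.9% of all genes were called, 10 rose, among them Hsp90b1 (0.45), Ssr1 (0.44) and Pdia6 (0.39), and 3 fell, Ddit3 (-0.44), Herpud1 (-0.37) and Ern1 (-0.30), which encodes the kinase that splices Xbp1 mRNA. In thymus against spleen 5 fell under 10% ribosomal share, led by Sec61b (-1.32), Mzb1 (-1.05) and Creld2 (-0.77), and 3 at or above 10%, Mzb1 (-1.24), Manf (-0.92) and Sdf2l1 (-0.87), with list medians of -0.20 and -0.47 beside -0.01 and -0.05 for all genes, of which 4.65% and 1.47% were called. At or above 10% the female thymus sum held 15 cells. Against bone marrow the thymus had 0 of 26 called in either group (medians 0.06 and -0.10). Spleen against bone marrow had 4 of 26 higher under 10%, led by Mzb1 (0.91), Sec61b (0.83) and Creld2 (0.79), with a median of 0.34 where 2.71% of all genes were called, and 0 called at or above 10% (0.31). Xbp1 itself had -0.26 and -0.11 in thymus against spleen, neither called. The counts do not separate spliced from unspliced Xbp1.

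The other 3 lists also held calls between tissues and sexes within the groups by ribosomal share. Nfkb2 and Relb were lower in spleen than in bone marrow under 10% (-0.86 and -0.86) and at or above it (-0.76 for Relb, -0.74 for Nfkb2), the latter with Klf2 (-0.69), where 2.71% and 3.74% of all genes were called. In thymus against bone marrow, Nfkb2 was lower under 10% (-0.96) and Relb at or above 10% (-1.36), each the 1 call of the partners list, where 1.64% and 1.27% of all genes were called. Nfkb2 stood at 19.4 TMM-scaled CPM in the 92 cells of female thymus and 78.2 in male thymus, against 98.7 and 128 in bone marrow, and Relb at 26.1 in the 15 cells of female thymus and 19.9 in male thymus, against 45.7 and 52.0 in bone marrow. Mef2c was higher in thymus than in spleen under 10% (0.62). In spleen against bone marrow, Ebf1 was higher under 10% (0.91), and at or above 10% Irf8 was lower (-0.46) and Aff4, a scaffold of elongation complexes, higher (0.50).

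Between the sexes, 4.36% of all genes were called under 10% and 4.71% at or above 10%. Klf2 was lower in males in both groups (-1.75 and -2.55) and Foxo1 higher (0.73 and 0.88). Under 10%, Ern1 was higher in males (0.49) and Dnajb9 (-0.76), Sec61b (-0.62) and Mzb1 (-0.56) lower. At or above 10%, Mef2b (0.49), Nfkb2 (0.57), Stat3 (0.49) and Rela (0.48) were higher in males, as was 1 more partner, and Ebf1 (-0.92) and Dnajb9 (-0.43) lower. Sex and pool cannot be told apart here.

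Of 15 genes of elongation and heavy chain mRNA processing, the field in which ELL2 works, Mllt3 rose in IgA cells (0.67), Aff1 in IgG cells (0.40) and Cstf2 in cycling cells (0.35), each the 1 call of 10, 10 and 14 tested, where 7.73%, 13% and 23.9% of all genes were called, so these counts are near or below the shares over all genes. Between the groups by ribosomal share 77.8% of all genes were called, and nothing is read from the counts of the 4 lists there. Of this list 10 of 14 were higher under 10%, led by Aff4 (2.23), Aff1 (1.77) and Eaf1 (1.60), and Hnrnpf was lower (-0.43). Of the unfolded protein response list 11 of 26 were higher, led by Atf6 (2.21), Ern1 (1.78) and Hyou1 (1.59), and 7 lower, led by Sec61b (-3.07), Mzb1 (-1.66) and Manf (-1.34). Among B cell regulators, 4 of 7 were higher, with Bach2 (1.93), Ets1 (1.53) and Foxo1 (0.71), and 3 lower, Mef2b (-0.47), Spi1 (-0.39) and Irf8 (-0.25). Among partners, 19 of 26 were higher, led by Prdm2 (1.64), Pou2f1 (1.63) and Runx1 (1.52), and 2 lower, Id2 (-1.01) and Batf (-0.78). The medians of the 4 lists were 0.88, 0.00, 0.59 and 0.41, beside 0.40 for all genes.

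Over 19 sums of at least 50 cells per library, class and cycling state, the pattern of each gene was set against 5755 genes with a mean of at least 20 CPM, by Pearson's r of log2(CPM + 1). The sums share libraries, so these values describe likeness and carry no test. Female thymus gave no sum, since its largest group held 48 cells, and male thymus gave only IgM sums (170 non-cycling and 57 cycling cells). Among the 7 genes, Irf4 was most like Ikzf3 (r = 0.84) and Ell2 (0.75), and Zbtb20 most like Ikzf3 (0.74). After each library's mean was subtracted, Irf4 kept r = 0.67 with Ikzf3 and 0.59 with Ell2, while Zbtb20 and Ell2 went from 0.32 to -0.49. Pou2af1 and Xbp1 ran against each other in both forms (-0.52 and -0.63), and Prdm1 and Xbp1 also had a negative r (-0.48 and -0.24).

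Outside the 7, the genes most like Irf4 were Med12, Gm4070, Man1b1, Scd2 and Gga3 (r = 0.92 to 0.95), and those most like Zbtb20 were Erbin, Setd2, Cmah, Ash1l and Inpp5d (0.91 to 0.92). Those most like Ell2 were Opa1, Edrf1, Khdrbs1, Arhgap30 and Eif3a (0.89 to 0.91), and those most like Ikzf3 were Fbxl20, Swap70, Hivep1, Abcb1b and Lasp1 (0.90 to 0.93). Pou2af1 was most like Cd83, a B cell activation marker, followed by Epb41l2, Hdac9, Vav3 and Txndc5 (0.86 to 0.89). Prdm1 was most like St3gal6, Mob3a, Slc25a4, Tpm4 and Dnm3 (0.80 to 0.86), and Xbp1 most like Map1lc3a, Edem2, Prr5, Chid1 and Mxd4 (0.78 to 0.85). With library means subtracted, at most 1 of the 5 genes stayed among the first 5 of any member.

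Cell by cell, at 1000 UMIs each, 3 pairs serve as examples. The median r over the 6 libraries was 0.09 for Irf4 and Ell2, 0.08 for Irf4 and Zbtb20, and 0.01 for Prdm1 and Irf4. At this sparsity a weak correlation is no finding. Against the ribosomal share the median was -0.26 for Zbtb20, -0.23 for Ell2 and -0.21 for Irf4. The ranges were -0.34 to -0.20, -0.28 to -0.20 and -0.26 to 0.04 in the same order. Within the group of lower ribosomal share the medians were -0.08, -0.11 and -0.10. Within the group of higher share, read in 5 libraries, they were -0.05, -0.04 and -0.03. Xbp1 had a median r of 0.18 with the immunoglobulin share of a cell, with a range of 0.13 to 0.24. For Zbtb20 the median was -0.17, with a range of -0.34 to -0.01. In the groups of lower and higher ribosomal share the median for Xbp1 was 0.12 and 0.17. For Zbtb20 it was -0.07 (-0.28 to 0.02) and -0.03 (-0.10 to 0.06). Why the medians within groups differ from those over all cells was not tested.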

How the data were processed

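Gene expression libraries were made with the 10x Genomics 5′ chemistry, 1 per sex and tissue. Per the submitters' processing notes, reads were processed with Cell Ranger 6.0.2 on GRCm38 (mm10). The deposited matrices hold UMI counts per gene and barcode, with no normalization by the authors. The B cell receptor libraries were not used here. Members and gene lists were chosen with earlier results of these data known.

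Counts of the cells that passed were summed per library, or per library and class, cycling state or ribosomal share, in sums of at least 10 cells (tissue sums have no minimum), without the 395 genes whose names start with Igh, Igk or Igl; the comparison of the 2 groups by ribosomal share also leaves out ribosomal protein and mitochondrial genes. Sums held 264621 to 21287170 UMIs per library. They were tested with edgeR 4.0.16 in R (filterByExpr, TMM, glmQLFit, glmQLFTest, Benjamini-Hochberg over all genes tested at 0.05), with tissue and sex, or library and class, cycling or share, as terms. SE is the absolute log2 fold change over the square root of F. Alternatives were DESeq2 1.42.0, no TMM, other filters and cell limits, and each library left out. Poisson and binomial intervals are exact at 95% and cover counting error only. The code was tested on simulated counts. The text names the 7 members, the 3 called genes with the largest log2 fold change per list, contrast and direction, and the 5 genes most like each member. Doublets were not called; a light chain share of at least 50% limits them only in part.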

Additional observations from a re-analysis of the deposited data

How the results depend on the processing

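The numbers of genes called that differed by more than 1.5 times from the main ones were as follows, by setting; contrasts marked under or at least 10% are those within the groups by ribosomal share. The main numbers were 86 (thymus against bone marrow), 71 (thymus against spleen), 49 (spleen against bone marrow), 48 (male against female), 170 (thymus against bone marrow, under 10%), 481 (thymus against spleen, under 10%), 280 (spleen against bone marrow, under 10%), 451 (male against female, under 10%), 124 (thymus against bone marrow, at least 10%), 143 (thymus against spleen, at least 10%), 364 (spleen against bone marrow, at least 10%), 458 (male against female, at least 10%), 408 (IgA against IgM), 686 (IgG against IgM), 2576 (cycling against non-cycling), 8275 (under against at least 10% share). With "DESeq2" they were 57 (thymus against bone marrow), 8 (spleen against bone marrow), 10 (male against female), 64 (thymus against bone marrow, under 10%), 215 (thymus against spleen, under 10%), 30 (spleen against bone marrow, under 10%), 96 (male against female, under 10%), 47 (thymus against bone marrow, at least 10%), 34 (thymus against spleen, at least 10%), 18 (spleen against bone marrow, at least 10%), 13 (male against female, at least 10%), 1596 (cycling against non-cycling). With "at least 2000 UMIs" they were 82 (spleen against bone marrow), 117 (male against female). With "cells thinned to 1000 UMIs" they were 38 (thymus against bone marrow), 27 (thymus against spleen), 10 (spleen against bone marrow), 26 (male against female), 60 (thymus against bone marrow, under 10%), 280 (thymus against spleen, under 10%), 130 (spleen against bone marrow, under 10%), 256 (male against female, under 10%), 12 (thymus against bone marrow, at least 10%), 6 (thymus against spleen, at least 10%), 25 (spleen against bone marrow, at least 10%), 21 (male against female, at least 10%), 88 (IgA against IgM), 204 (IgG against IgM), 402 (cycling against non-cycling), 5012 (under against at least 10% share). With "cycling state read after thinning" they were 785 (cycling against non-cycling). With "light chain share at least 80%" they were 52 (thymus against bone marrow), 40 (thymus against spleen), 15 (spleen against bone marrow), 20 (male against female), 62 (thymus against bone marrow, under 10%), 38 (male against female, under 10%), 220 (IgA against IgM), 404 (IgG against IgM), 1607 (cycling against non-cycling). With "no TMM scaling" they were 30 (spleen against bone marrow), 188 (thymus against bone marrow, at least 10%), 769 (male against female, at least 10%). With "no filter but 10 UMIs" they were 131 (thymus against bone marrow), 137 (thymus against spleen), 124 (spleen against bone marrow), 104 (male against female). With "non-cycling IgM cells only" they were 159 (spleen against bone marrow, under 10%), 39 (thymus against bone marrow, at least 10%), 44 (thymus against spleen, at least 10%), 143 (spleen against bone marrow, at least 10%), 123 (male against female, at least 10%). With "non-cycling IgM cells with ribosomal share under 10%" they were 132 (thymus against bone marrow), 352 (thymus against spleen), 159 (spleen against bone marrow), 347 (male against female). With "ribosomal share at least 10%" they were 143 (thymus against spleen), 364 (spleen against bone marrow), 458 (male against female), 105 (IgA against IgM). With "ribosomal share under 10%" they were 170 (thymus against bone marrow), 481 (thymus against spleen), 280 (spleen against bone marrow), 451 (male against female), 167 (IgA against IgM), 1393 (cycling against non-cycling). With "tissue and sex in place of library" they were 172 (IgA against IgM), 348 (IgG against IgM), 818 (cycling against non-cycling). With "top heavy gene at least 80%" they were 199 (IgA against IgM). With "without cells with 2 UMIs of core B cell genes" they were 55 (thymus against bone marrow), 832 (male against female), 442 (spleen against bone marrow, under 10%), 20 (thymus against bone marrow, at least 10%), 14 (thymus against spleen, at least 10%), 22 (spleen against bone marrow, at least 10%), 38 (male against female, at least 10%), 187 (IgA against IgM), 296 (IgG against IgM), 367 (cycling against non-cycling), 5325 (under against at least 10% share). With "without cells with 2 markers of other cell types" they were 43 (thymus against bone marrow), 215 (thymus against spleen), 112 (spleen against bone marrow), 348 (male against female), 65 (IgA against IgM), 17 (IgG against IgM), 4 (cycling against non-cycling). With single libraries left out they ranged over 16 to 353 (thymus against bone marrow), 33 to 934 (thymus against spleen), 11 to 158 (spleen against bone marrow), 10 to 205 (male against female), 75 to 267 (thymus against bone marrow, under 10%), 233 to 589 (thymus against spleen, under 10%), 45 to 481 (spleen against bone marrow, under 10%), 126 to 615 (male against female, under 10%), 24 to 289 (thymus against bone marrow, at least 10%), 24 to 320 (thymus against spleen, at least 10%), 6 to 818 (spleen against bone marrow, at least 10%), 12 to 1174 (male against female, at least 10%), 151 to 625 (IgA against IgM), 259 to 831 (IgG against IgM), 1588 to 2745 (cycling against non-cycling), 7413 to 8298 (under against at least 10% share).

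Sex numbers the libraries of a tissue and was the block of the tissue fits; whether it pairs mice is not stated in the labels. With no replicate block, the genes called were 40 (thymus against bone marrow), 24 (thymus against spleen), 17 (spleen against bone marrow), 32 (thymus against bone marrow, under 10%), 39 (thymus against spleen, under 10%), 7 (spleen against bone marrow, under 10%), 46 (thymus against bone marrow, at least 10%), 41 (thymus against spleen, at least 10%), 65 (spleen against bone marrow, at least 10%).

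Of 2037 values of the 7 genes under an alternative, 185 had the opposite sign to the main value, any size counted. Of these 1 was called in the main fit (Zbtb20 by cycling) and 0 in the alternative; the cause was not tested. With "DESeq2" they were male against female, at least 10% Irf4 -0.0701. With "at least 2000 UMIs" they were thymus against spleen Prdm1 0.0833, male against female Ell2 0.0446. With "cells thinned to 1000 UMIs" they were spleen against bone marrow Pou2af1 0.0839, thymus against bone marrow, under 10% Prdm1 -0.0441, male against female, under 10% Pou2af1 0.0283, thymus against bone marrow, at least 10% Xbp1 -0.11 and Pou2af1 0.0486, thymus against spleen, at least 10% Prdm1 -0.27 and Pou2af1 0.0175, spleen against bone marrow, at least 10% Pou2af1 0.0311, male against female, at least 10% Ell2 -0.0203, IgG against IgM Zbtb20 0.000960. With "cycling state read after thinning" they were cycling against non-cycling Prdm1 -0.19 and Irf4 0.0385 and Ikzf3 0.0635. With "light chain share at least 80%" they were thymus against bone marrow Ikzf3 0.00522, thymus against spleen Zbtb20 0.0460, spleen against bone marrow Irf4 0.0626 and Pou2af1 0.0152, male against female Prdm1 0.12 and Xbp1 0.10, thymus against bone marrow, under 10% Prdm1 -0.00426 and Ikzf3 0.0470, spleen against bone marrow, under 10% Pou2af1 -0.0835 and Ell2 -0.00520, male against female, under 10% Pou2af1 0.00280, cycling against non-cycling Irf4 0.00580. With "no TMM scaling" they were thymus against bone marrow Prdm1 0.0831 and Xbp1 0.0918 and Ikzf3 0.22, thymus against spleen Prdm1 0.30 and Zbtb20 0.0894, male against female Prdm1 0.0854 and Xbp1 0.0897 and Ell2 0.13, thymus against bone marrow, under 10% Ikzf3 0.0138, male against female, under 10% Xbp1 0.0423 and Pou2af1 0.0867 and Ell2 0.0332, thymus against bone marrow, at least 10% Prdm1 0.0834 and Pou2af1 0.0213, thymus against spleen, at least 10% Xbp1 0.0785 and Pou2af1 0.11, cycling against non-cycling Irf4 0.0245. With "no filter but 10 UMIs" they were thymus against bone marrow, under 10% Prdm1 -0.0153, thymus against spleen, under 10% Ell2 -0.0248, thymus against bone marrow, at least 10% Xbp1 -0.0175. With "non-cycling IgM cells only" they were thymus against spleen Ell2 -0.0203, spleen against bone marrow Irf4 0.0251, male against female Prdm1 0.0251 and Xbp1 0.0771 and Ell2 0.0451, thymus against bone marrow, under 10% Prdm1 -0.16 and Xbp1 -0.0282 and Ell2 -0.0374, thymus against spleen, under 10% Prdm1 -0.0524 and Ell2 -0.11, male against female, under 10% Xbp1 0.0414 and Ell2 0.0425, thymus against bone marrow, at least 10% Xbp1 -0.33, thymus against spleen, at least 10% Irf4 -0.0201 and Pou2af1 0.00243 and Ell2 -0.0476, male against female, at least 10% Ikzf3 -0.0184 and Ell2 -0.0251. With "non-cycling IgM cells with ribosomal share under 10%" they were thymus against bone marrow Ell2 -0.0374, thymus against spleen Ell2 -0.11, spleen against bone marrow Pou2af1 0.0469, male against female Xbp1 0.0414 and Pou2af1 -0.0132 and Ell2 0.0425. With "non-cycling cells only" they were thymus against spleen Prdm1 0.0153 and Ikzf3 -0.0656. With "ribosomal share at least 10%" they were thymus against bone marrow Xbp1 0.00294, thymus against spleen Prdm1 0.0849 and Ikzf3 -0.17, spleen against bone marrow Irf4 0.20, male against female Prdm1 0.22 and Xbp1 0.0628 and Ell2 0.00224, IgA against IgM Prdm1 0.24, cycling against non-cycling Irf4 0.0602. With "ribosomal share under 10%" they were thymus against bone marrow Prdm1 0.0135 and Xbp1 0.0310, thymus against spleen Prdm1 0.17, spleen against bone marrow Pou2af1 0.0351, male against female Pou2af1 -0.0190. With "top heavy gene at least 80%" they were IgG against IgM Ell2 -0.12. With "with immunoglobulin genes in library sizes" they were thymus against spleen Prdm1 0.00111. With "without cells with 2 UMIs of core B cell genes" they were thymus against spleen Prdm1 0.0376, spleen against bone marrow Pou2af1 0.0965, male against female Pou2af1 -0.0444 and Ell2 0.0134, thymus against bone marrow, under 10% Prdm1 -0.0559, thymus against bone marrow, at least 10% Xbp1 -0.30, thymus against spleen, at least 10% Prdm1 -0.35, cycling against non-cycling Prdm1 -0.00703 and Ikzf3 0.00181. With "without cells with 2 markers of other cell types" they were thymus against bone marrow Xbp1 0.00872 and Ell2 -0.13, thymus against spleen Ell2 -0.20, spleen against bone marrow Pou2af1 0.0624, male against female Prdm1 0.0731 and Xbp1 0.0106 and Ell2 0.0700, IgG against IgM Zbtb20 0.0542 and Ikzf3 0.0439 and Ell2 -0.0874, cycling against non-cycling Prdm1 -0.12 and Zbtb20 0.0203 and Pou2af1 0.0730 and Ikzf3 0.0538. With single libraries left out the range crossed 0 in 36 of 112 cases: thymus against bone marrow Ikzf3 -0.22 to 0.0882, thymus against spleen Prdm1 -0.26 to 0.27 and Zbtb20 -0.60 to 0.27 and Ikzf3 -0.0487 to 0.26 and Ell2 -0.0322 to 0.30, spleen against bone marrow Prdm1 -0.46 to 0.0608 and Irf4 -0.27 to 0.21 and Xbp1 -0.0729 to 0.38 and Zbtb20 -0.80 to 0.0844 and Pou2af1 -0.29 to 0.21, male against female Prdm1 -0.19 to 0.12 and Irf4 -0.0362 to 0.25 and Xbp1 -0.17 to 0.10 and Zbtb20 -0.0352 to 0.49 and Pou2af1 -0.13 to 0.25 and Ell2 -0.15 to 0.0857, thymus against bone marrow, under 10% Prdm1 -0.21 to 0.24 and Xbp1 -0.11 to 0.15 and Ikzf3 -0.18 to 0.00667, thymus against spleen, under 10% Ell2 -0.0418 to 0.0377, spleen against bone marrow, under 10% Prdm1 -0.37 to 0.0715 and Pou2af1 -0.0720 to 0.14, male against female, under 10% Xbp1 -0.14 to 0.0646 and Zbtb20 -0.00500 to 0.28 and Pou2af1 -0.12 to 0.0607, thymus against bone marrow, at least 10% Prdm1 -0.35 to 0.0286 and Xbp1 -0.13 to 0.11 and Pou2af1 -0.63 to 0.0213, thymus against spleen, at least 10% Prdm1 -0.17 to 0.20 and Pou2af1 -0.55 to 0.11 and Ell2 -0.0218 to 0.14, spleen against bone marrow, at least 10% Irf4 -0.0571 to 0.46 and Pou2af1 -0.24 to 0.05996, male against female, at least 10% Irf4 -0.25 to 0.17 and Ell2 -0.0203 to 0.0718, IgA against IgM Prdm1 -0.20 to 0.0246.

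The thymus libraries hold 107 and 288 cells and the IgA sums 11 to 147 cells, which bounds their precision. With 2 libraries a tissue the fit of all cells leaves 2 residual degrees of freedom.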
